A study of Mus musculus with 16 samples.

Results

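The genes described here are the 77 mouse genes named as mitochondrial ribosomal proteins, among 45706 genes in the count table. They were taken by name: every gene whose symbol starts with Mrpl or Mrps followed by a digit, leaving out 5 pseudogene entries whose names carry -ps. By the place of the protein in the known structure of the ribosome, 50 belong to the large subunit and 26 to the small subunit. Mrps18a and Mrps30 are among the large-subunit genes despite their names, and Mrps36 stands apart because its product is now known as a component of the 2-oxoglutarate dehydrogenase complex. All 77 passed the filter on low counts, which 13792 genes passed, and the smallest estimated count of any of them in any library was 132.

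Mitochondrial ribosomes translate the few messenger RNAs of mitochondrial DNA, which encode core subunits of the respiratory chain and of ATP synthase. Their rRNAs come from mitochondrial DNA, whereas all their proteins are encoded in the nucleus, made in the cytosol and imported. Some of these proteins have counterparts in bacterial ribosomes, and others are found only in mitochondria. In skeletal muscle, a tissue rich in mitochondria, the supply of ribosomal proteins has to be matched to rRNA made in another compartment.

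The study sequenced polyadenylated RNA from mouse skeletal muscle, which the labels name QUAD, in 8 knock-out (KO) and 8 wild-type (WT) libraries. KO stands for a skeletal-muscle-specific knock-out of Nampt, which encodes the rate-limiting enzyme of NAD salvage. The sources used here name no treatment and give neither the promoter that drives the deletion nor the age or sex of the animals. The labels number 8 samples per genotype and do not state whether each is a separate animal, so p-values reflect the spread among these libraries only.

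Libraries held 16065394 to 51881258 estimated counts in genes, and the RNA integrity numbers in the labels ran from 8.2 to 8.8. Values are given as CPM, estimated counts scaled to a common library size with edgeR's trimmed mean of M-values. Nampt lay between 60.4 and 88.7 CPM in the KO libraries (73.4 ± 9.30, SD, n = 8) and between 125.5 and 161.1 CPM in the WT libraries (141.4 ± 12.0, SD, n = 8), without overlap. All 8 muscle fibre markers were detected. In the marker lists for other cells, 1 of 4 endothelial and 2 of 4 pericyte and smooth muscle genes had an unadjusted p under 0.05. These were Cdh5, Notch3 and Rgs5, all on the higher side, where the share in the whole tested set was 4.02%. The groups overlapped for Cdh5 (log2 fold change 0.18, KO 83.3 to 94.0 and WT 67.7 to 86.8 CPM). They also overlapped for Rgs5 (KO 198.9 to 238.1 and WT 176.8 to 220.5 CPM). Notch3 had a log2 fold change of 0.20, with KO at 36.63 to 42.80 and WT at 30.30 to 36.61 CPM. Its groups did not overlap, which held for 0.123% of the whole tested set. The part of these marker genes in the results below was not tested. In bulk tissue, fewer cells of a type and less RNA per cell cannot be told apart.

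The mitochondrial ribosomal protein genes differed widely among themselves in level, and far less between libraries. Levels between genes are compared here as CPM per kilobase (kb) of the median length of a gene's protein-coding transcripts. The median over the 77 genes was 21.2 CPM per kb, beside 4.67 for all tested genes and 147 for the cytosolic ribosomal protein genes. The median was 26.2 CPM per kb in the large subunit and 17.5 in the small subunit.

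Mrpl42, of the large subunit, had the highest level, 179.4 ± 9.27 CPM per kb (SD over 16 libraries, KO and WT together). Mrps21, which has a bacterial counterpart in the small subunit, followed at 132.9 ± 6.91. Mrpl30 reached 77.7 ± 3.73 and Mrps23 reached 72.8 ± 3.24 CPM per kb. With this length, these leading 4 genes each differed from the next in the order by more than the larger of the neighbours' SDs.

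Below them the order was mostly unresolved, since only 13 of the 76 neighbouring pairs differed by more than that SD. Mrpl54 (54.3 CPM per kb) and Mrps36 (53.3), for example, were not separated. Of the 77 genes, 59 lay between 10 and 60 CPM per kb and 14 lay under 10. The lowest levels were those of Mrps25 (2.70 ± 0.151 CPM per kb), Mrpl19 (3.50 ± 0.321), Mrpl47 (3.68 ± 0.266) and Mrps35 (4.61 ± 0.378), so that the highest level was 66.4 times the lowest. Part of the order depended on the length used: per kb of all annotated exons Mrps21 ranked 1 with 72.9 CPM per kb, Mrpl42 ranked 9 with 32.2, and Mrpl33 moved from rank 7 to rank 68.

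**Figure D1:**
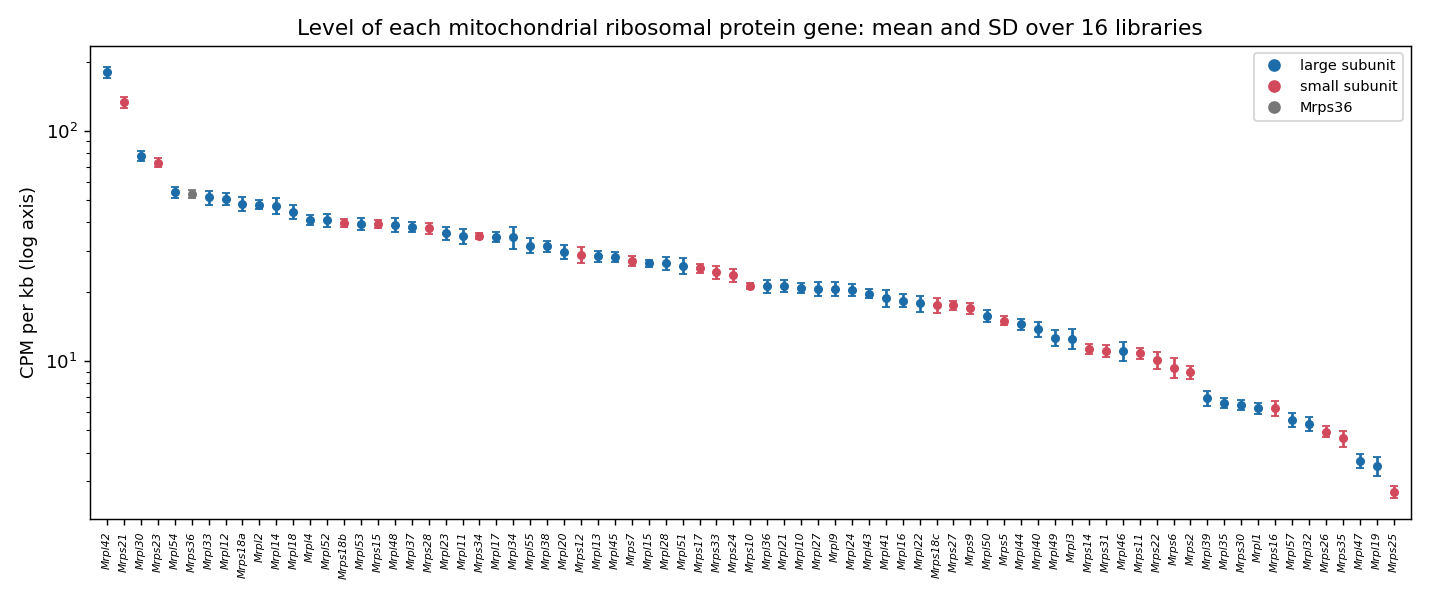
Level of each of the 77 genes in CPM per kb on a log axis, as the mean (point) and SD (bar) over 16 libraries, coloured by subunit and ordered by level. Mrpl42 and Mrps21 stand above 100 CPM per kb, 59 genes lie between 10 and 60, and Mrps25 is lowest at 2.70.

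Between genotypes, no mitochondrial ribosomal protein gene passed the test. At an adjusted p under 0.05 (edgeR's quasi-likelihood test, Benjamini-Hochberg adjustment over all 13792 genes), 0 of 77 were called, beside 6 of all tested genes (0.0435%, with 0.0218% higher and 0.0218% lower). DESeq2 and limma-voom also called 0 of the 77, against 0.74% and 0.0363% of all tested genes. With DESeq2, 2 genes came close to the threshold, Mrps24 (adjusted p = 0.0544) and Mrps33 (adjusted p = 0.0572). Without the adjustment, 5 of 77 genes (6.49%) had a p under 0.05, against 9.57% of all tested genes. The KO and WT libraries overlapped for every one of the 77 genes, while 0.123% of all tested genes had groups that did not overlap.

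The intervals on these differences were narrow. Log2 fold changes of KO over WT ran from -0.15 to 0.09, with standard errors from 0.03 to 0.08. All 77 of the 95% intervals were bounded by a 1.2-fold change up or down, as were 52.3% of the intervals of all tested genes. That bound was chosen after the values were seen. The lowest bound of any interval was -0.23 and the highest was 0.22 on the log2 scale. The precision came with high counts and a small spread: the median SD within genotype was 0.08 on the log2 scale, against 0.15 for all tested genes, and the highest library exceeded the lowest by a median of 1.25 times, against 1.52 times.

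More of these genes lay below 0 than above it, by small amounts. The log2 fold change was below 0 for 50 of 77 genes (64.9%), against 48.2% of all tested genes, with a median of -0.02 against 0.00. In the large subunit 32 of 50 genes lay below 0, with a median of -0.01 that ran from -0.03 (without WT 8) to -0.0012 (without WT 1) when single libraries were left out and was 0.0015 with scaling by library totals only. In the small subunit 17 of 26 lay below 0, with a median of -0.02 that ran from -0.04 (without WT 8) to -0.02 (without KO 4). Genes with a bacterial counterpart (29 of 46 below 0, median -0.01) and genes found only in mitochondria (20 of 30, median -0.02) gave similar values. The cytosolic ribosomal protein genes, set beside them as a list of the same kind, had 66 of 86 below 0 with a median of -0.02, and 0 called; the lowest p in that list were those of Rps12 (log2 fold change -0.11) and Rps27l (-0.14).

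**Figure D2:**
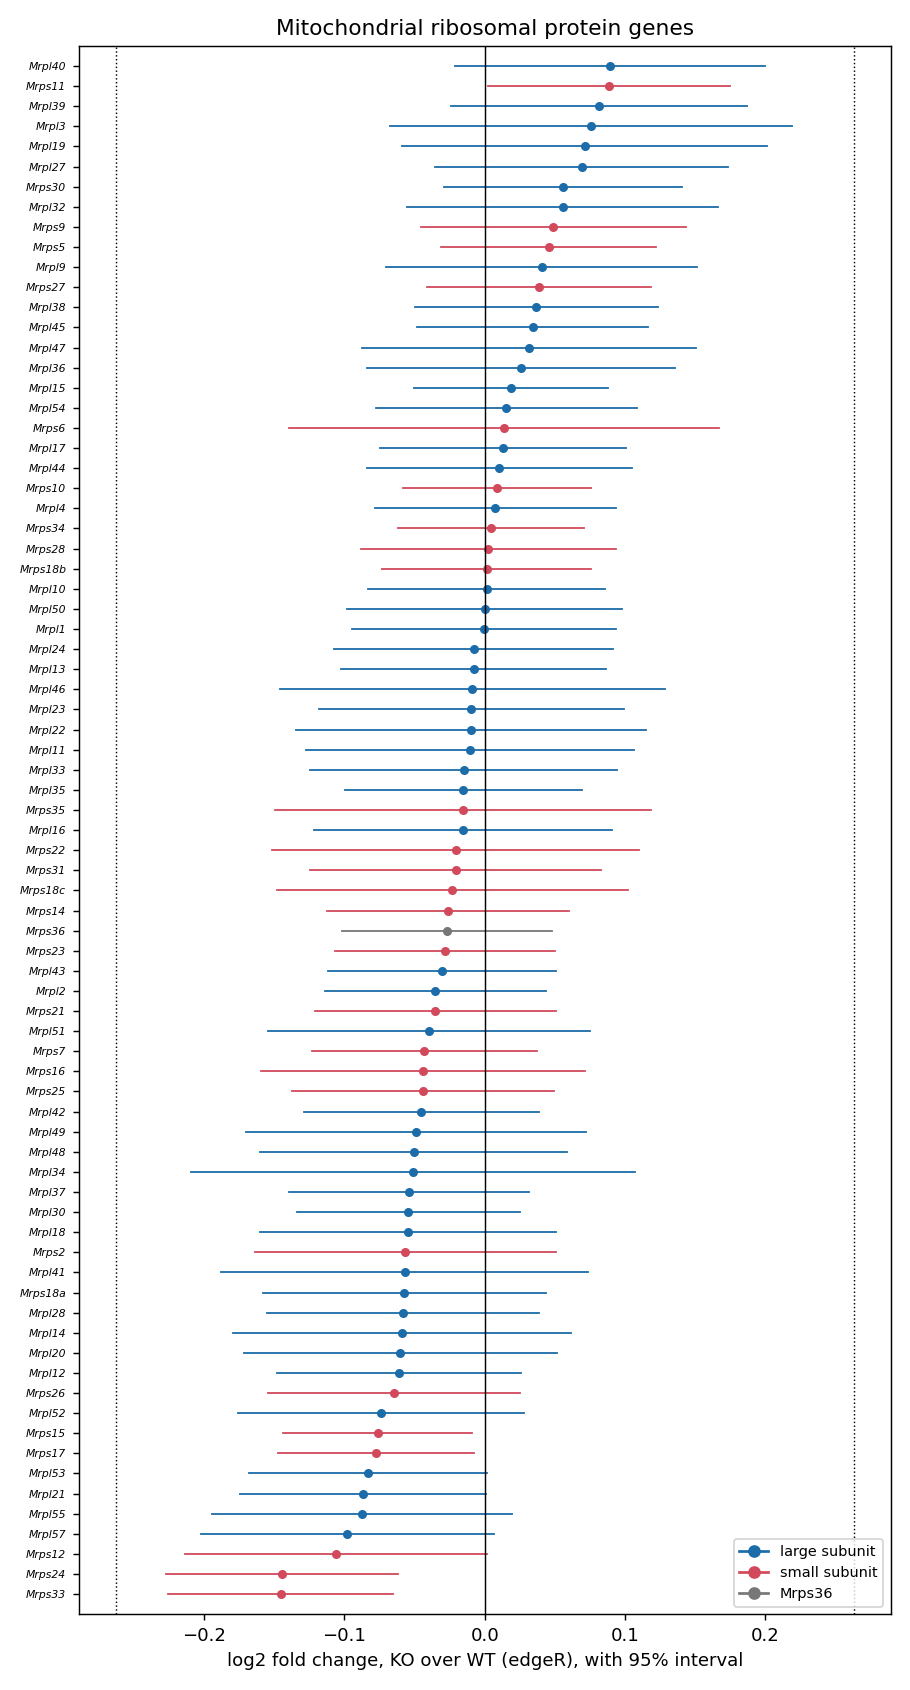
Log2 fold change of KO over WT for each of the 77 genes (point) with its 95% interval (line) from edgeR, coloured by subunit, with dotted lines at a 1.2-fold change. All 77 intervals lie between the dotted lines, and 50 points lie below 0.

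The 5 genes with an unadjusted p under 0.05 all code for small-subunit proteins. Mrps33, Mrps24, Mrps15 and Mrps17 were lower in KO, and Mrps11 was higher. The 4 lower genes make up 5.19% of the 77 genes, against 5.55% of all tested genes, and 15.4% of the 26 small-subunit genes. On the higher side the background was 4.02%. The split by subunit was described after the values were seen and has no test of its own.

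Mrps33 (ENSMUSG00000029918), a small-subunit protein found only in mitochondria, lies on the minus strand at chr6:39801804-39810988 (GRCm38). Its level was 15.3, 16.8 and 17.2 CPM (lowest, median and highest) in KO and 16.7, 18.4 and 19.6 CPM in WT. The groups overlapped: 3 KO libraries were below every WT library, and all 8 were below the WT mean. Means were 16.6 ± 0.580 CPM for KO and 18.3 ± 0.918 CPM for WT (SD, n = 8 each). The log2 fold change was -0.15 (SE 0.04), which puts KO at 90.4% of WT, with an adjusted p of 0.199 by edgeR's quasi-likelihood test.

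Mrps24 (ENSMUSG00000020477), the counterpart of a bacterial protein at the entry of the messenger RNA channel, lies on the minus strand at chr11:5703983-5715680. Its level was 20.3, 22.6 and 23.96 CPM in KO and 23.3, 24.6 and 25.7 CPM in WT. Here 6 of 8 KO libraries were below every WT library, and the other two overlapped with WT. The log2 fold change was -0.14 (SE 0.04; edgeR adjusted p = 0.218), with means of 22.3 ± 1.23 CPM for KO and 24.7 ± 0.914 CPM for WT (SD, n = 8 each). The annotation places 15.4% of the exon bases of Mrps24 under exons of Urgcp on the same strand, so some reads there cannot be assigned to one gene by position.

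Mrps15 and Mrps17 both have bacterial counterparts that bind the rRNA of the small subunit. Mrps15, on the plus strand at chr4:126046925-126055532, had 34.3, 35.96 and 37.3 CPM in KO and 36.2, 38.3 and 39.7 CPM in WT. Mrps17, on the plus strand at chr5:129715497-129722556, had 19.3, 21.0 and 22.2 CPM in KO and 21.5, 22.1 and 22.8 CPM in WT. For Mrps15, 4 KO libraries were below every WT library, and for Mrps17 it was 7 of 8, with KO 7 alone inside the WT range. Both log2 fold changes were -0.08 (SE 0.03), with an adjusted p of 0.452 for Mrps15 and 0.462 for Mrps17 by edgeR. Mrpl21, the large-subunit gene with the lowest p on this side, had 18.7, 19.7 and 21.1 CPM in KO and 19.4, 21.3 and 22.5 CPM in WT (log2 fold change -0.09, edgeR adjusted p = 0.534).

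Mrps11, the counterpart of a bacterial protein on the platform of the small subunit, was the one gene of the 77 on the higher side at an unadjusted p under 0.05. Its level was 11.3, 11.4 and 12.6 CPM in KO and 10.4, 11.1 and 11.6 CPM in WT. The groups overlapped, with 3 KO libraries above every WT library and all 8 above the WT mean. The log2 fold change was 0.09 (SE 0.04; edgeR adjusted p = 0.504). Mrps11 (plus strand, chr7:78783119-78792989) and Mrpl46 (minus strand, chr7:78775236-78783531) share their 5′ ends, and 7.97% of the exon bases of Mrps11 lie opposite exons of Mrpl46, whose own log2 fold change was -0.01.

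The large-subunit genes with the lowest p on the higher side were Mrpl40, Mrpl39, Mrpl27 and Mrps30. Mrpl40 had 13.1, 14.7 and 15.8 CPM in KO and 11.9, 13.7 and 15.1 CPM in WT, with a log2 fold change of 0.09 (edgeR adjusted p = 0.623). The log2 fold changes of Mrpl39, Mrpl27 and Mrps30 were 0.08, 0.07 and 0.06. In each of these 4 genes the KO and WT libraries overlapped.

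Further large-subunit genes lay below 0 without reaching that p. Mrpl57 and Mrpl53, both found only in mitochondria, had log2 fold changes of -0.10 (SE 0.05) and -0.08 (SE 0.04), and Mrpl55, which has a bacterial counterpart, had -0.09 (SE 0.05). Mean levels of Mrpl57 were 15.5 ± 1.10 CPM for KO and 16.6 ± 0.941 CPM for WT (SD, n = 8 each). All 8 KO libraries lay below the WT mean for 5 of the 77 genes, Mrps33, Mrps24, Mrps15, Mrpl21 and Mrpl53. All 8 lay above it for Mrps11 alone. These genes were picked out after their values were seen, and the same counts were not made over all tested genes.

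Some of these genes overlap others, which bears on what their counts measure. Exons of 8 of the 77 overlap exons of another gene on the same strand, those of 27 overlap exons on the opposite strand, and 45 have neither. Of the exon bases of Mrpl53, 88.0% lie under Gm42688 on the same strand, and of those of Mrps25, the gene with the lowest level per kb, 69.8% lie opposite Nr2c2. Of the exon bases of Mrps34, 37.0% lie under Nme3 on the same strand and 63.4% lie opposite Mapk8ip3. Reads in same-strand overlaps cannot be assigned to one gene by position. Without a stated strand setting, the same holds for reads in opposite-strand overlaps.

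**Figure D3:**
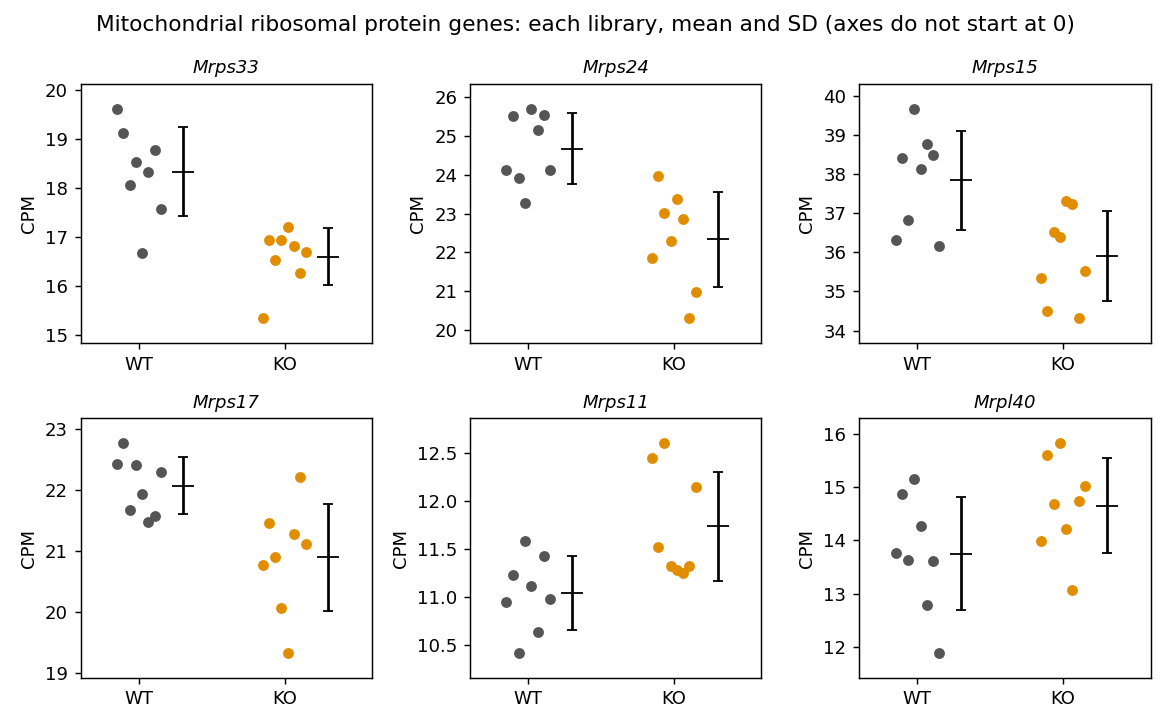
CPM in each WT (grey) and KO (orange) library for 6 genes, with the mean and SD of each group in black; the axes do not start at 0. Mrps33, Mrps24, Mrps15 and Mrps17 have lower KO means, Mrps11 and Mrpl40 have higher KO means, and the groups overlap in every panel.

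Among genes for functional centres of the ribosome, Mrpl10 and Mrpl12 form the stalk to which translation factors bind. Mrpl12 had 59.6, 64.6 and 72.5 CPM in KO and 63.4, 69.4 and 71.4 CPM in WT (log2 fold change -0.06), and Mrpl10 had 23.7, 25.7 and 27.6 CPM in KO and 23.3, 25.3 and 26.8 CPM in WT (0.00). Mrps5, the counterpart of a bacterial protein known for its role in translational accuracy, had a log2 fold change of 0.05. Mrps12, the counterpart of the bacterial protein at the decoding site, had the lowest log2 fold change after Mrps33 and Mrps24, -0.11 (edgeR adjusted p = 0.535), and it was singled out after its value was seen.

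The paralogues Mrps18a, Mrps18b and Mrps18c are related to one bacterial small-subunit protein, and Mrps18a sits in the large subunit. In the classes above, only Mrps18c was counted as having a bacterial counterpart. Mrps18a and Mrps18b were counted with the genes found only in mitochondria, despite this relation. Their log2 fold changes were -0.06, 0.00 and -0.02. KO medians were 35.4, 31.8 and 10.7 CPM, and WT medians were 36.4, 31.6 and 11.3 CPM, with overlapping groups for each. Mrps36 had 31.7, 33.8 and 34.7 CPM in KO and 31.0, 34.9 and 35.8 CPM in WT (log2 fold change -0.03).

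The spread between libraries of one genotype also differed among the genes. Mrpl34 and Mrpl3, whose bacterial counterparts are large-subunit proteins, had the largest SDs within genotype, 0.16 and 0.14 on the log2 scale. Mrpl3 ranged from 25.4 to 35.1 CPM in KO and from 24.98 to 33.5 CPM in WT. Mrps10 and Mrps34 of the small subunit had the smallest SDs, both 0.04, and Mrps10 ranged only from 21.2 to 22.5 CPM in KO and from 20.5 to 22.8 CPM in WT.

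Proteins of the mitochondrial ribosome that carry other names gave values of the same size. Chchd1, Aurkaip1, Dap3 and Ptcd3 belong to the small subunit and Gadd45gip1 to the large subunit. Of these 5 genes, 0 were called, beside 0.0435% of all tested genes. An unadjusted p under 0.05 was found for 2 of 5, both lower, against 5.55% of all tested genes on that side. Chchd1 had 35.0, 38.6 and 42.6 CPM in KO and 38.3, 41.0 and 44.8 CPM in WT, with overlapping groups and a log2 fold change of -0.11 (edgeR adjusted p = 0.414). Aurkaip1 had 27.1, 29.3 and 31.8 CPM in KO and 28.8, 31.96 and 33.8 CPM in WT (-0.11, edgeR adjusted p = 0.431). Dap3, which binds GTP, had a log2 fold change of -0.05, Ptcd3 one of -0.02 and Gadd45gip1 one of 0.07.

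As a group the 77 genes took up nearly the same share of each library. They held 0.206% to 0.232% of all estimated counts, with 0.219% ± 0.00663 for KO and 0.220% ± 0.00642 for WT (SD, n = 8 each). The mean deviation of the 77 genes from their own means over all libraries ran from -0.06 to 0.05 (log2 CPM) in KO and from -0.06 to 0.04 in WT. By this deviation the highest library was KO 2 and the lowest was WT 3, with KO 4 next to it. The share of counts, taken without scaling between libraries, gave another order. KO 2 was again highest (0.232%), but WT 8 was lowest (0.206%), and WT 3 held 0.223%. In WT 6, 59 of the 77 genes were above their own median over the 16 libraries, in KO 2 it was 55, and in WT 3 it was 15. KO 2 was also the shallowest library and WT 3 the deepest, and the parts of depth and of scaling in these values were not tested.

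The mean deviations of large-subunit and small-subunit genes had the same sign in 12 of 16 libraries and opposite signs in KO 5, KO 6, WT 5 and WT 7. The mean log2 CPM of large-subunit genes exceeded that of small-subunit genes by 0.27 ± 0.02 among KO and 0.26 ± 0.02 among WT libraries (SD, n = 8 each).

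**Figure D4:**
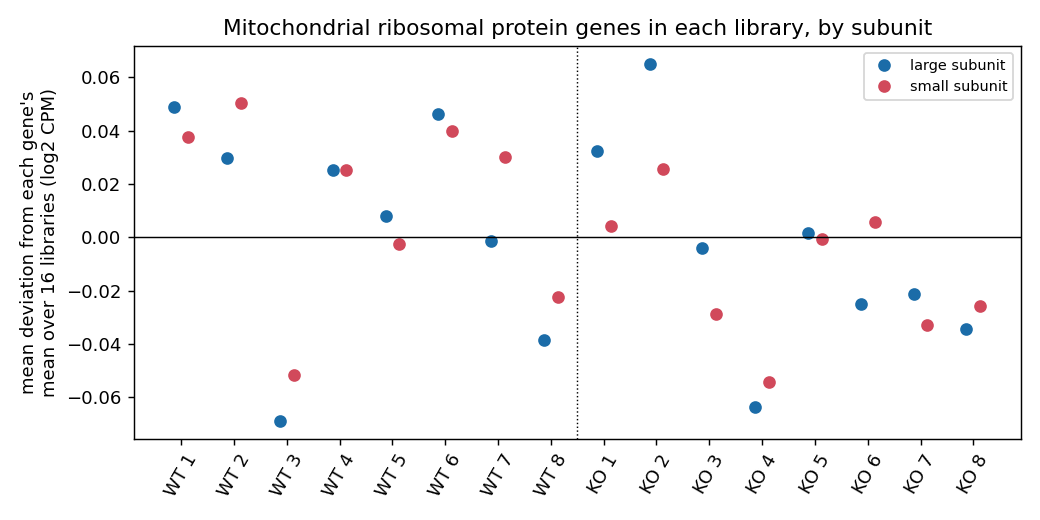
Mean deviation (log2 CPM) of the large-subunit (blue) and small-subunit (red) genes from each gene's mean over 16 libraries, for each WT and KO library. Libraries of both genotypes lie on both sides of 0, with WT 3 and KO 4 lowest for both subunits.

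Most of these genes have short transcripts, with a median length of 1047 bases against 2117.5 for all tested genes, and the log2 fold changes are given here by length. Among the 26 genes with transcripts up to 807 bases, 20 lay below 0 (median log2 fold change -0.03). Among the 26 genes above 1416 bases, 14 lay below 0 (median 0.00). All tested genes in the same length classes had 968 of 1776 (median -0.01) and 4364 of 9433 (median 0.01) below 0. Across the 77 genes the correlation of log2 fold change with log2 length was r = 0.28 (Spearman's rho 0.30), and across 13726 genes r was 0.05. These are descriptions across genes that share the same 16 libraries and are not independent replicates.

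The 77 genes lie on 17 chromosomes, with at most 10 on 1 chromosome (chromosome 11). Many start beside another gene: 33 of 77 (42.9%) start within 1 kb of the start of a protein-coding gene on the opposite strand, against 1966 of 12658 tested protein-coding genes (15.5%). Mrpl32, for example, is paired in this way with the proteasome gene Psma2, Mrpl36 with the complex I gene Ndufs6, and Mrps12 with Sars2, which charges mitochondrial tRNA with serine. Of the 28 partners that were tested, 0 were called, where the called share in the whole tested set was 0.0435%. An unadjusted p under 0.05 was reached by 5 partners, while 9.57% of the whole tested set reached it. Cyb5rl (log2 fold change -0.23), Hira (-0.12) and Rab6a (-0.10) were lower, and Wdfy1 (0.14) and Mrps11 (0.09) were higher. The sign matched that of the neighbouring ribosomal protein gene for 13 partners. Mrps11 and Mrpl46 are partners of each other, so both enter these counts.

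Promoter sequences were examined because factors known to drive nuclear genes for mitochondria, NRF1 and GABPA (also called NRF2), bind short motifs near start sites, as does YY1. RefSeq windows from 250 bases before to 50 bases after the start (GRCm38.p6) were found for 68 of the 77 genes and searched on both strands. The NRF1 motif, whose letters stand in capitals in the Mrpl45 sequence below with its middle base left free, occurred in 13 of 68 genes (19.1%), against 11.2% of tested genes and 5.19% of all genes with a window. The GABPA motif CCGGAAG occurred in 25 of 68 (36.8%, against 19.3% and 9.93%) and the YY1 motif AAGATGGC in 12 of 68 (17.6%, against 5.12% and 3.19%). The TATAAA box occurred in 5 of 68 (7.35%, against 9.1% and 15.7%). At least 1 of the NRF1, GABPA and YY1 motifs was present in 42 of 68 genes (61.8%), against 31.3% of tested genes. A match is a description of the letters in the window and not a binding site. The 4 stretches below end at the base before the start site and are written in the direction of transcription. Mrpl45 has a pair of NRF1 motifs before the start, and its window holds another match at base 16 after it. Mrpl43 has a pair of GABPA motifs, and Mrps22 has a single GABPA motif close to the start. Mrps24 has none of the motifs in its stretch. Its window holds a YY1 match at base 37 after the start and a TATAAA match at base 181 before it. The RefSeq start of Mrps24 lies inside the longer gene of the GENCODE annotation. Capitals mark motif matches. Mrpl45 lies at chr11:97315586-97315715 on the plus strand, and the others on the minus strand, Mrpl43 at chr19:45006443-45006552, Mrps22 at chr9:98601680-98601789 and Mrps24 at chr11:5707702-5707811.
Mrpl45: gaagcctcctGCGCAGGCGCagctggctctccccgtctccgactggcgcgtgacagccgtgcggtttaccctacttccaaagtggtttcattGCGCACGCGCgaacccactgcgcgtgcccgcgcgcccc
Mrpl43: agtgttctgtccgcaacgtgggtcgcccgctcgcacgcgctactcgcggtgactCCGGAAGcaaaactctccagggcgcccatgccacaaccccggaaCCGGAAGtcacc
Mrps22: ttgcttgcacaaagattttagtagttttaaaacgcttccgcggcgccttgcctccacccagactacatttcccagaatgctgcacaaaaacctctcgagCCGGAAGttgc
Mrps24: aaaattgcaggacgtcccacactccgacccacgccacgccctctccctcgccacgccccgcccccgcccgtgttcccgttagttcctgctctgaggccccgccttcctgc

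Genes grouped by motif all had medians close to 0. The 13 genes with an NRF1 motif had a median log2 fold change of 0.01, the 25 with a GABPA motif -0.04 and the 12 with a YY1 motif -0.04. Of the genes whose promoters are printed above, Mrpl45 had a log2 fold change of 0.03, Mrpl43 one of -0.03, Mrps22 one of -0.02 and Mrps24 one of -0.14. The 26 genes with a window and none of these motifs had a median of -0.01. The groups share genes, and no test compares them.

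Genes that build the mitochondrial ribosome or work with it were taken as lists beside the ribosomal proteins. None of these lists held a called gene, beside 0.0435% called of all tested genes. Of 29 assembly and rRNA modification genes, 1 was higher and 2 were lower at an unadjusted p under 0.05. The shares over all tested genes were 4.02% higher and 5.55% lower. Rpusd4, a pseudouridine synthase for mitochondrial RNA, had 5.24 to 7.93 CPM in KO and 5.26 to 7.12 in WT (log2 fold change 0.22, edgeR adjusted p = 0.404). Tfb1m, which dimethylates the small mitochondrial rRNA, had 3.72 to 5.69 CPM in KO and 4.58 to 6.02 in WT (-0.19, edgeR adjusted p = 0.457). The 15 translation factors had none at that p in either direction, with Slirp (-0.09) and Oxa1l (0.06) lowest in p. The same held for the 11 tested genes of mitochondrial transcription and DNA maintenance, led by Tefm (-0.12) and Elac2 (0.08).

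The 20 genes for charging mitochondrial tRNAs were aminoacyl-tRNA synthetases, and Gatb, Gatc and Qrsl1 of the amidotransferase for glutamine tRNA. Of them, 1 was higher at an unadjusted p under 0.05 and 0 were lower, against 4.02% and 5.55% of all tested genes. The higher gene was Lars2, which charges tRNA with leucine, at 203 to 2226 CPM in KO and 204 to 729.9 CPM in WT (log2 fold change 1.65, SE 0.49, edgeR adjusted p = 0.268). The spread between KO libraries was wide, 1153 ± 911 CPM (SD, n = 8). The median level over the 20 genes was 11.9 CPM. Whether all reads counted for Lars2 come from its messenger RNA was not tested. Hars2, which charges tRNA with histidine, was next in p, with a log2 fold change of 0.10. Among 9 regulators of mitochondrial biogenesis, 1 was higher and 1 was lower at an unadjusted p under 0.05, against 4.02% and 5.55% of all tested genes. Their log2 fold changes ran from -0.26 to 0.19. Lowest in p were Esrra (-0.13) and Ppargc1b (0.19), with adjusted p of 0.385 each by edgeR. The 13 messenger RNAs of mitochondrial DNA, which these ribosomes translate, had 12 values below 0 and a median of -0.07, with 0 at an unadjusted p under 0.05. Among them mt-Nd1 had -0.12 and mt-Nd3 -0.21.

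The rRNA partners of these proteins, mt-Rnr1 of the small and mt-Rnr2 of the large subunit, had larger log2 fold changes than any of the 77 protein genes, without passing the test, and their highest values were in 4 KO libraries. For mt-Rnr2 the KO libraries had 1357, 3036 and 5202 CPM and the WT libraries 1298, 2059 and 2385 CPM. For mt-Rnr1 they had 641, 1528 and 2883 CPM against 650, 1062 and 1286 CPM. The log2 fold changes were 0.64 (SE 0.23, edgeR adjusted p = 0.365) and 0.59 (SE 0.26, edgeR adjusted p = 0.473). KO libraries 1, 3, 5 and 8 held 3687 to 5202 CPM of mt-Rnr2, while the other 12 libraries of both genotypes held 1298 to 2386 CPM. The same 4 libraries had the highest mean level over 10 RNAs taken as lacking a poly(A) tail. It was a mean log2(CPM + 0.5) of 3.95 to 4.37, against 2.51 to 3.79 in the other 12. Histone genes are among the 10, and whether each RNA lacks a tail in this muscle was not tested. The part of such RNA in the rRNA values was not tested either. The 10 RNAs did not move alike: Rmrp and Rn7sk had log2 fold changes of 2.05 and 1.65, while the histone genes Hist2h2be and Hist1h2bc had -0.20 and -0.12. With the mean level of the 10 RNAs as a covariate the log2 fold changes were 0.10 for mt-Rnr2 and -0.04 for mt-Rnr1, and genotype and this level cannot be told apart in the 4 libraries. Without these 4 libraries they were -0.08 and -0.23, values that follow in part from the choice, since the libraries left out are the KO libraries with the highest mt-Rnr2. The 77 protein genes did not set these libraries apart: their mean deviation was -0.03 to 0.02 in the 4 libraries and -0.06 to 0.05 in the other 12.

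**Figure D5:**
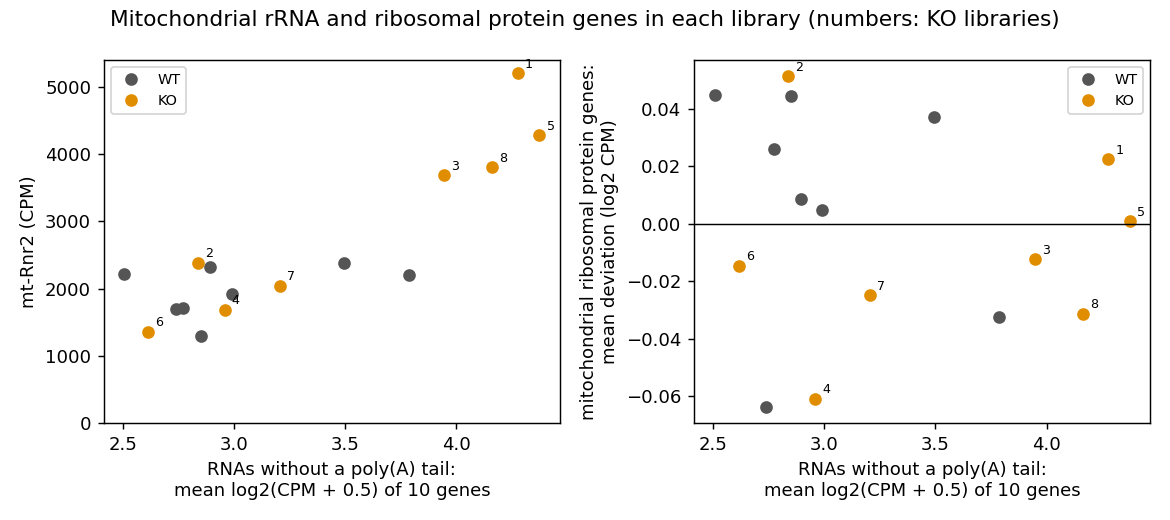
mt-Rnr2 in CPM (left) and the mean deviation of the 77 ribosomal protein genes in log2 CPM (right), 1 point per library. The horizontal axis is the mean log2(CPM + 0.5) of 10 RNAs taken as lacking a poly(A) tail. KO libraries 1, 3, 5 and 8 are at the right in both panels, at 3687 CPM of mt-Rnr2 or more but within the range of the other 12 libraries for the protein genes.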

How the data were processed

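The authors deposited estimated counts per gene for 16 libraries of mouse skeletal muscle RNA. The submitters' processing notes name bcl2fastq 4.0.3, STAR, Salmon and the build GRCm38. The sources used here do not give the STAR and Salmon versions, the annotation release or the strand setting. The estimated counts were rounded (11.1% of the deposited values were not whole) and tested with edgeR 4.0.16 in R 4.3.3: filterByExpr, trimmed mean of M-values, quasi-likelihood F test of 8 KO against 8 WT libraries, and Benjamini-Hochberg adjustment over 13792 genes. Genes removed by the filter held 0.0705% of the counts. Limma 3.58.1 and DESeq2 1.42.0, other scalings, filters, covariates and library sets were alternatives. Gene positions and lengths came from the GENCODE annotation of GRCm38, promoter windows from RefSeq. No pair of replicates was near identical (chi-square per degree of freedom at least 8.09). The scripts were tested on simulated data. The genes, lists and tests were chosen with earlier results of these data known. Named were Nampt, the 5 genes with the lowest p in each direction, the extremes of level and spread, paralogues and genes with a second role, ribosomal proteins with other names, and the 2 genes with the lowest p of each other list, of which the marker lists are given by counts and examples.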

Additional observations from a re-analysis of the deposited data

Results flagged for a closer look

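In 3 of 74 groups of 8 libraries checked, for the ribosomal genes named here in KO and in WT, 1 library lay apart from the others by more than Dixon's 95% limit (a gap over 0.526 of the group's range); chance gives about 1 in 20. Mrps18c, a paralogue of the small subunit, had 13.1 CPM in KO 3, with the next library at 11.4 CPM and the lowest at 10.2 CPM. Mrps36 had 31.7 CPM in KO 4, with the next at 33.3 CPM and the highest at 34.7 CPM. Gadd45gip1 of the large subunit had 33.8 CPM in KO 5, with the next at 28.3 CPM and the lowest at 24.9 CPM.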

How the results depend on the processing

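No mitochondrial ribosomal protein gene was called in any of 26 alternatives, and the lowest adjusted p was 0.0544 (Mrps24, DESeq2). The median of the 77 genes lay below that of all tested genes by 0.02 (log2) in the reported fit and stayed below it in all 26, and 42 to 56 genes lay below 0. Over all tested genes, calls numbered 6, and 2 with RLE factors, 2 with library totals only, 3 without the filter and 102 with DESeq2. They numbered 2 with the carry-over covariate (the level of 10 RNAs taken as lacking a poly(A) tail) and 2 without KO 1, 3, 5 and 8. Of the 77 genes, 5 had an unadjusted p under 0.05, and 8 with RLE factors, 3 with library totals only, 3 without the filter, 3 with DESeq2 and 3 with the carry-over covariate. Leaving out each library gave 2 (without KO 2) to 8 calls (without WT 7), and 3 (without WT 1) to 8 genes (without KO 2) at that p. The labels do not say whether the replicate numbers pair the samples. Deviations of same-numbered samples correlated between -0.11 and 0.25, and 3 of 8 pairs were over 0.1. Of 8 KO libraries, 2 correlated best with their own number. With 8 pairs, these values cannot decide whether the numbers pair the samples. With the replicate number as a block, 2 genes were called and 3 of the 77 had an unadjusted p under 0.05.

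Signs of single log2 fold changes turned in 11 of 37 named genes. With the carry-over covariate the turned values were -2.96e-05 for Mrpl54, 0.0166 for Mrps35, -0.00765 for Mrps34, -0.0211 for Mrpl10, 0.0196 for Ptcd3 and -0.0419 for mt-Rnr1. Without KO 1, 3, 5 and 8 they were -0.0131 for Mrpl54, 0.0433 for Mrps35, -0.0304 for Mrps34, -0.0454 for Mrpl10, -0.00768 for Gadd45gip1, 0.0267 for Ptcd3, -0.0754 for mt-Rnr2 and -0.232 for mt-Rnr1. RLE factors and DESeq2 gave -0.000624 and -0.000558 for Mrps18b and -0.000668 and -0.0019 for Mrpl10, and the RIN covariate gave -0.00503 for Mrpl10. Leaving out each library gave -0.0128 to 0.0304 for Mrpl54, -0.0131 to 0.0203 for Mrps18b, -0.0456 to 0.00869 for Mrps35, -0.0018 to 0.0206 for Mrps10, -0.0104 to 0.0153 for Mrps34, -0.0643 to 0.000791 for Mrps18c, -0.0152 to 0.0155 for Mrpl10 and -0.0444 to 0.00285 for Ptcd3. The cause was not tested. Over the single libraries left out, the median of the 77 genes ran from -0.0315 (without KO 2) to -0.012 (without WT 6), and with library totals only it was -0.0031, with 0.00147 for the large subunit. Per kb of all annotated exons the order of levels changed as described for Mrpl42, Mrpl30, Mrps23, Mrpl33 and Mrps35.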
